A study of Mus musculus with 32 samples.

Results

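The comparison described here is that of Mettl3 KO with WT hippocampal neurites without KCl, and its members are 4 of the 16 RNA-seq libraries of the study (32 libraries in all, the others being DART-seq). They were chosen by their labels: 2 replicates of Mettl3 KO neurites and 2 of WT neurites, both untreated. Mettl3 KO neurons (labelled Mettl3-/-) came from Mettl3 Flox/Flox newborn mice and WT neurons from C57BL/6 mice, so Mettl3 genotype and mouse line cannot be told apart in this design. Both kinds of culture were grown for 15 days on porous PET membranes, through which axons and dendrites grow to the lower side, and received an AAV with Cre and dTomato behind the neuronal hSyn promoter on day 7 (50000 vector genomes per cell). On day 14, D-AP5 (50 µM) and tetrodotoxin (1 µM) were added for 16 h to silence synaptic activity, and RNA was taken from the material scraped off the lower side. Each replicate was a separate litter with pups of both sexes pooled, and the neuronal promoter leaves Mettl3 in other cell types of the culture.

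METTL3 is the catalytic subunit of the complex that writes N6-methyladenosine (m6A) on mRNA in the nucleus, together with METTL14, WTAP and several adaptor proteins. YTHDF and YTHDC proteins read the mark, and FTO and ALKBH5 can remove methyl groups from RNA. In neurons, m6A is known to bear on the decay, translation and transport of mRNAs, including those that are carried into dendrites and axons for local translation.

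The 2 KO libraries held 50431597 and 34969090 counts and the 2 WT libraries 57046498 and 38093506. Levels below are in CPM, the TMM-scaled count relative to library size, and a log2 change is KO against WT. Replicates differed by an SD of 0.348 log2 units in WT and 0.526 in KO, taken over the 14184 genes whose mean count reached 100. Neuron markers were present in all 4 libraries (10 of 10 tested), with a summed level of 2916 and 3471 CPM in KO and 4481 and 4943 in WT. Astrocyte markers were present too (12 of 12 tested, none at 0), although Ara-C had been added to limit glial growth, with a summed level of 6504 and 2864 CPM in KO and 3063 and 1976 in WT. Among them Gfap, an intermediate filament of astrocytes, measured 3892 and 1674 CPM in KO and 1629 and 1138 in WT. None of the 12 astrocyte markers was called by edgeR at an adjusted p (4 were higher at an unadjusted p, and DESeq2 called 1 higher), but all 12 had a positive log2 change, with a median of 0.843 against 0.0243 for all genes tested, and the summed neuron markers were lower in both KO libraries. The summed astrocyte markers overlapped between the groups, with KO replicate 2 below WT replicate 1. For 4 of the 12 both KO values lay above both WT values, as for 5433 of all 21814 genes tested. These marker differences between the libraries lie under all results below, and their part in them was not tested. In such bulk fractions, fewer neurites and less RNA per neurite cannot be told apart either.

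Mettl3 itself (ENSMUSG00000022160, GRCm38 chromosome 14 from 52294841 to 52305128) measured 3.70 and 6.38 CPM in the KO neurites and 11.3 and 11.5 in the WT neurites. Both KO values lay below both WT values, at a log2 change of −1.18 (standard error 0.312). This difference was not called (adjusted p = 0.146, edgeR quasi-likelihood test with Benjamini-Hochberg adjustment), whereas DESeq2 called it (adjusted p = 0.0138). The counts cover all exons of the gene, including those that Cre does not remove, so they check the deletion only in part. In soma of the same cultures Mettl3 measured 9.75 and 12.9 CPM in KO against 19.1 and 18.4 in WT. No other writer subunit was called by edgeR or DESeq2: Mettl14, the partner of METTL3, had a log2 change of −0.15, and Wtap, which anchors the complex, of −0.35. Across the 8 genes of the methyltransferase complex the median log2 change was −0.112.

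In the main fit fewer RNAs were called higher than lower in KO neurites, although 11363 log2 changes were positive and 10451 negative. With no filter on low counts, 921 were called higher and 886 lower. Of 21814 genes tested, 38 were called higher (0.174%) and 98 lower (0.449%), where a call needed 1.5-fold or more and an adjusted p up to 0.05 (edgeR quasi-likelihood test, two-sided, 2 libraries against 2). Without an adjustment, 1350 genes were higher and 1441 lower at the same fold. Both KO values lay above both WT values for 5433 genes and below them for 5335. Every called gene was among these, and since its call came from the same 4 libraries, this adds no support to it. DESeq2, which called 488 genes higher and 653 lower, gave larger counts for most gene lists as well, and its counts stand beside those of edgeR. These counts over all 21814 genes are the background for those of the lists below, and no list was tested as a set. The falls included genes of synaptic scaffolds, receptors and channels, and axon guidance genes. The rises included members of the Serpina3 and Cd209 families, the immediate early genes Fos and Egr1, and RNAs that share reads with other copies in the genome. The counts rested on single libraries: without WT replicate 2 only 5 genes were called higher and 8 lower, and without WT replicate 1 it was 24 and 52. Without KO replicate 1 the counts were 337 and 924, and without KO replicate 2 they were 1551 and 1338, each under the assumption that the lone library varies like the other group. With each library left out in turn, 11 of the 136 genes stayed called in every case, with Mndal, Gm26809, 4732496C06Rik, Tmem181b-ps, Apoa2 and Serpini1 among the 7 falls, and Gm45104, Serpina3m, Fn3krp and Cd209f as the 4 rises. Of these, 8 also held under the other alternatives, the exceptions being Apoa2, Serpini1 and Cd209f, and each of the remaining 128 calls was lost under at least 1 of 11 alternatives.

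**Figure D1:**
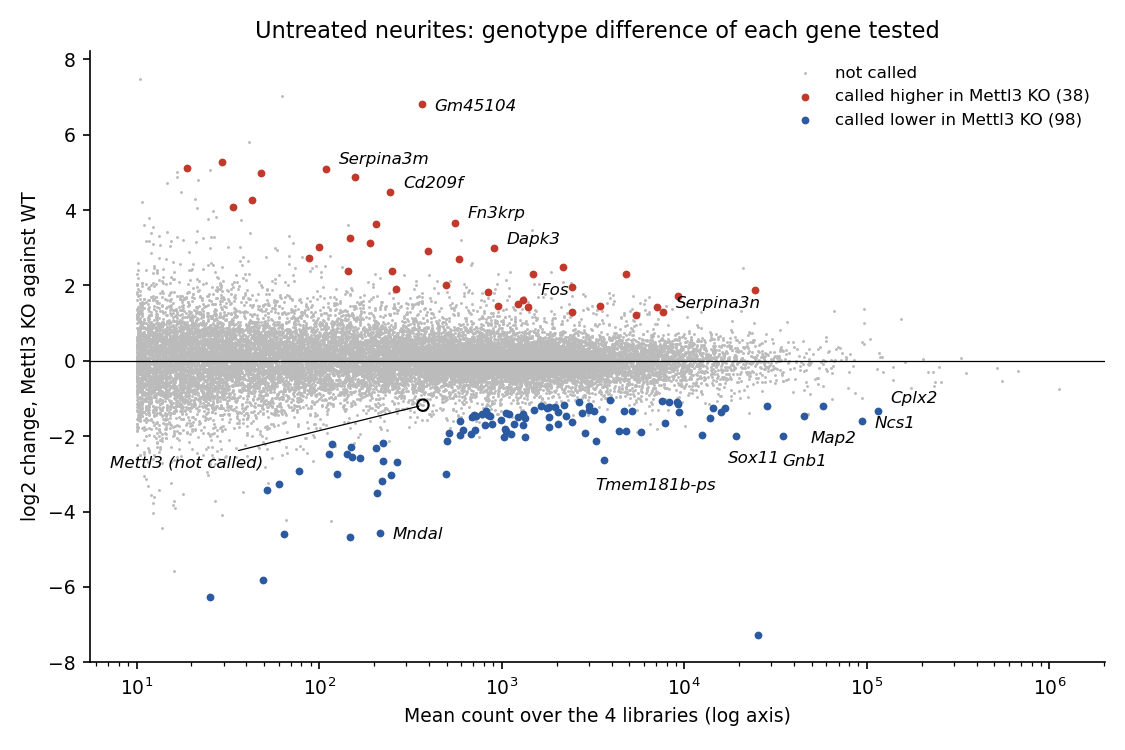
Each point is 1 of 21814 genes, with its mean count over the 4 untreated neurite libraries on a log x axis and its log2 change (Mettl3 KO against WT) on the y axis. The 38 genes called higher are red, the 98 called lower are blue and Mettl3, which was not called, is circled. Labelled genes include Mndal at a log2 change of −4.58 and Gm45104 at 6.80, and most called genes lie closer to 0.

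The study's list of m6A sites comes from DART-seq, in which a fusion of the deaminase APOBEC1 with the m6A-binding YTH domain turns a cytidine beside m6A into uridine. The list holds 18231 sites. The sequences below show, for 7 called genes with a site, the site with the highest C-to-U percentage (the authors' mean over their WT libraries), read from GRCm38 on the strand of the gene as 21 bases. The capitals mark the adenosine taken as methylated, the base before it and the edited C after it:
Adnp: aaaaagctAACttacaaatgt
Map2: cccccaaaGACctcttgatca
Dapk3: cactgcatGACgtgttcgaga
Dlg2: ttcctggaGACaacagcatct
Ythdf3: gctggaaaAACtaaaggccat
Cebpb: aaagtgaaGACattttaataa
Fos: ccaaccgcGACtgcagcgagc
The study kept only sites with A or G, then A, then C at this place, and of the 18231 listed 46.3% had AAC and 53.7% GAC. The Map2 site lay in the 3′UTR (chr1:66440353-66440373, plus strand) at 12.8%. The Dlg2 site (chr7:91940041-91940061, plus strand, 14.8%), the Ythdf3 site (chr3:16204872-16204892, plus strand, 13.0%), the Adnp site (chr2:168183385-168183405, minus strand, 13.2%) and the Dapk3 site (chr10:81190109-81190129, plus strand, 4.87%) lay in coding sequence. The Cebpb site lay in the 3′UTR (chr2:167690372-167690392, plus strand, 26.8%) and the Fos site in the 5′UTR (chr12:85473888-85473908, plus strand, 2.04%).

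Genes with m6A sites were found among rises and falls alike. Of the 98 genes called lower 34 (34.7%) had a listed site, and of the 38 called higher 12 (31.6%), against 25.2% of all genes tested. Among protein-coding genes the shares were 37.2%, 55.0% and 35.8%. By number of sites, 4 genes were called higher and 10 lower of 1271 genes with 5 or more sites. It was 4 and 16 of 2457 genes with 2 to 4 sites, and 4 and 8 of 1767 with 1. Among 16319 genes without a site it was 26 and 64, and over all genes tested 0.174% and 0.449%. DESeq2 called 38 higher and 76 lower with 5 or more sites, 80 and 87 with 2 to 4, 63 and 64 with 1, and 307 and 426 without. The median log2 change was −0.0708 with 5 or more sites, 0.0282 with 2 to 4, 0.0252 with 1 and 0.0341 without, and restricting each class to mean counts from 100 up left these medians between −0.0708 and 0.0279. The site list depends on expression, and no test was made of these classes.

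**Figure D2:**
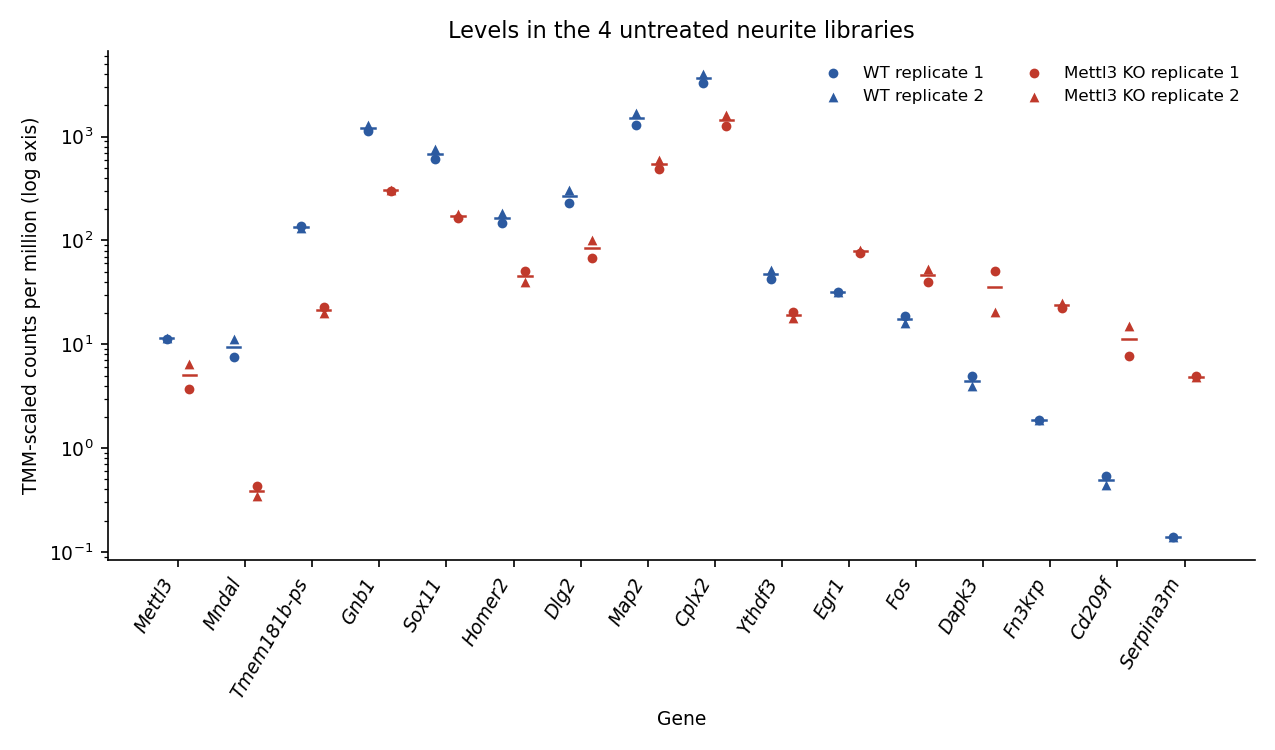
TMM-scaled levels in CPM (log y axis) of 16 genes in the 4 untreated neurite libraries, blue for WT and red for Mettl3 KO, with a circle for replicate 1, a triangle for replicate 2 and a line at the mean of each group. For the 15 called genes, Mettl3 being the exception, the gap between the groups is wider than the gap between replicates.

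Several falls concerned proteins of the postsynaptic side. Homer2, a scaffold that links receptors to the postsynaptic density, measured 51.0 and 40.2 CPM in KO and 148 and 184 in WT, −1.86 on the log2 scale (standard error 0.200, adjusted p = 0.0214). Dlg2, which encodes the scaffold PSD-93, measured 68.4 and 102 CPM in KO and 231 and 307 in WT (log2 change −1.66, standard error 0.244, adjusted p = 0.0413). Neither gene's groups overlapped, as in every called gene. They were the 2 genes called of 18 postsynaptic scaffold genes, for which the median log2 change was −0.184 and 13 values were negative. DESeq2 called 3 of the 18 lower. Dlgap1, a partner of PSD-95, measured 163 and 186 CPM against 293 and 341 without being called (adjusted p = 0.0846). Shank1, a scaffold whose mRNA is known to be dendritic, differed more between KO replicates, at 459 and 115 CPM, than between genotypes (173 and 196 CPM in WT). All adjusted p in this and the following paragraphs come from edgeR's quasi-likelihood test.

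Neurotransmitter receptors tended to lower values in KO neurites, with 1 call in each class. The 12 GABA-A receptor subunits, which form the main inhibitory receptors, had a median log2 change of −0.679, and 9 values were negative. DESeq2 called 6 of the 12 lower. Gabra3, Gabra2 and Gabrb2 were lower in both KO libraries, at log2 changes of −1.61, −0.84 and −0.97, but missed the threshold (adjusted p from 0.0594 to 0.0822). Grm2, a presynaptic metabotropic glutamate receptor, measured 23.2 and 24.7 CPM in KO and 52.0 and 60.8 in WT (log2 change −1.24, adjusted p = 0.0411). Of 22 glutamate receptor genes no other was called by edgeR, and their median was −0.469, while DESeq2 called 5 lower and 1 higher. Among the uncalled, Grin3a had a log2 change of −1.30 and Grin2a of −0.87, whereas Grik5, a kainate receptor subunit, was at 108 and 46.3 CPM in KO and 16.5 and 19.5 in WT (log2 change 2.10, adjusted p = 0.0636).

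On the presynaptic side, Cplx2 and Syt4 fell. Cplx2 encodes complexin 2, which binds SNARE complexes before vesicle fusion, and measured 1276 and 1627 CPM in KO against 3311 and 4025 in WT (log2 change −1.34, standard error 0.205, adjusted p = 0.0466). Syt4, a synaptotagmin, measured 116 and 140 CPM against 265 and 284 (log2 change −1.10, adjusted p = 0.0495). These were 2 of 30 genes of synaptic vesicles and SNAREs, of which 25 had a negative log2 change (median −0.302), and DESeq2 called 4 lower. Syt1, the calcium sensor of fast release, was at 214 and 260 CPM in KO and 449 and 419 in WT without being called (adjusted p = 0.0846). Lynx1, which modulates nicotinic acetylcholine receptors, was not on a list and fell from 195 and 208 CPM to 54.1 and 54.4 (log2 change −1.89, adjusted p = 0.0141). Ncs1, a neuronal calcium sensor, measured 969 and 1112 CPM in KO and 2644 and 3712 in WT (log2 change −1.61, adjusted p = 0.0403), and both were chosen after their values were seen.

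Voltage-gated channels had 1 call of 38 in edgeR, against 8 lower and 1 higher in DESeq2. The edgeR call was Kcnc2, a Kv3 potassium channel, which measured 11.8 and 13.4 CPM in KO and 35.1 and 30.8 in WT (log2 change −1.39, adjusted p = 0.0411). The median of the list was −0.326, with 29 of 38 values negative. Scn2a, a sodium channel of the axon initial segment, and Kcnd2, a dendritic potassium channel, had log2 changes of −0.81 and −1.05 without being called. Cacna1a, the pore of P/Q-type calcium channels, stood on the other side at 33.5 and 36.4 CPM in KO and 18.2 and 20.3 in WT (adjusted p = 0.0956).

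Guidance genes gave 4 of the falls, out of 47 tested. Slit2, a secreted repellent of growing axons, measured 9.49 and 8.96 CPM in KO and 27.0 and 21.9 in WT (log2 change −1.41, adjusted p = 0.0463). Its receptor gene Robo1 measured 6.18 and 6.52 CPM against 20.5 and 18.1 (log2 change −1.61, adjusted p = 0.0403). Sema3c, a secreted semaphorin, and Epha5, an ephrin receptor, had log2 changes of −1.83 and −1.27 (adjusted p = 0.0317 and 0.0413). For all 4 genes the groups were apart, with each KO value below each WT value, as in every gene called lower. The median of the whole list was −0.113, and 19 of its 47 values were positive. DESeq2 called 9 lower and 1 higher.

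Map2, whose mRNA and protein mark dendrites, measured 489 and 601 CPM in KO neurites and 1296 and 1707 in WT neurites (log2 change −1.46, standard error 0.209, adjusted p = 0.0413). With Homer2 and Cplx2 it was 1 of the 3 genes called of 25 mRNAs known from dendrites and axons, with a median of −0.170, and DESeq2 called 5 lower and 1 higher. Camk2a, a well-known dendritic mRNA, measured 3343 and 4732 CPM in KO and 5746 and 7133 in WT, which was not called (log2 change −0.67, adjusted p = 0.219). Bdnf and Homer1 had log2 changes of 0.075 and 0.17, and Actb of 0.43, each uncalled (adjusted p from 0.283 to 0.923). For Shank1, Bdnf and Homer1 the sign depended on KO replicate 1, without which their log2 changes were −0.68, −0.28 and −0.27. Of 23 microtubule and neurofilament genes Map2 was the only call, and of 23 motor protein genes (median −0.233) and 27 genes of RNA granule proteins (median −0.191) none was called by edgeR. At an unadjusted p, 2 and 7 of these were lower, and DESeq2 called 1 and 3 lower. Among them, Kif5c, a kinesin heavy chain, had a log2 change of −0.72, and Cpeb2 and Cpeb4, which regulate the translation of mRNAs, of −1.13 and −1.51 (adjusted p = 0.0594 and 0.0598).

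Among the proteins that read or remove m6A, Ythdf3 was the only call of 14. It measured 20.6 and 18.1 CPM in KO neurites and 42.7 and 52.1 in WT neurites (log2 change −1.29, standard error 0.191, adjusted p = 0.0413). The other cytoplasmic readers, Ythdf1 and Ythdf2, had log2 changes of 0.46 and 0.24 (adjusted p = 0.291 and 0.536), so that the 3 paralogues did not lie on the same side. Both KO values of Ythdf1, 23.9 and 28.0 CPM, were above both WT values, 19.3 and 18.4. Fto and Alkbh5 had log2 changes of −0.29 and −0.11, neither called.

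**Figure D3:**
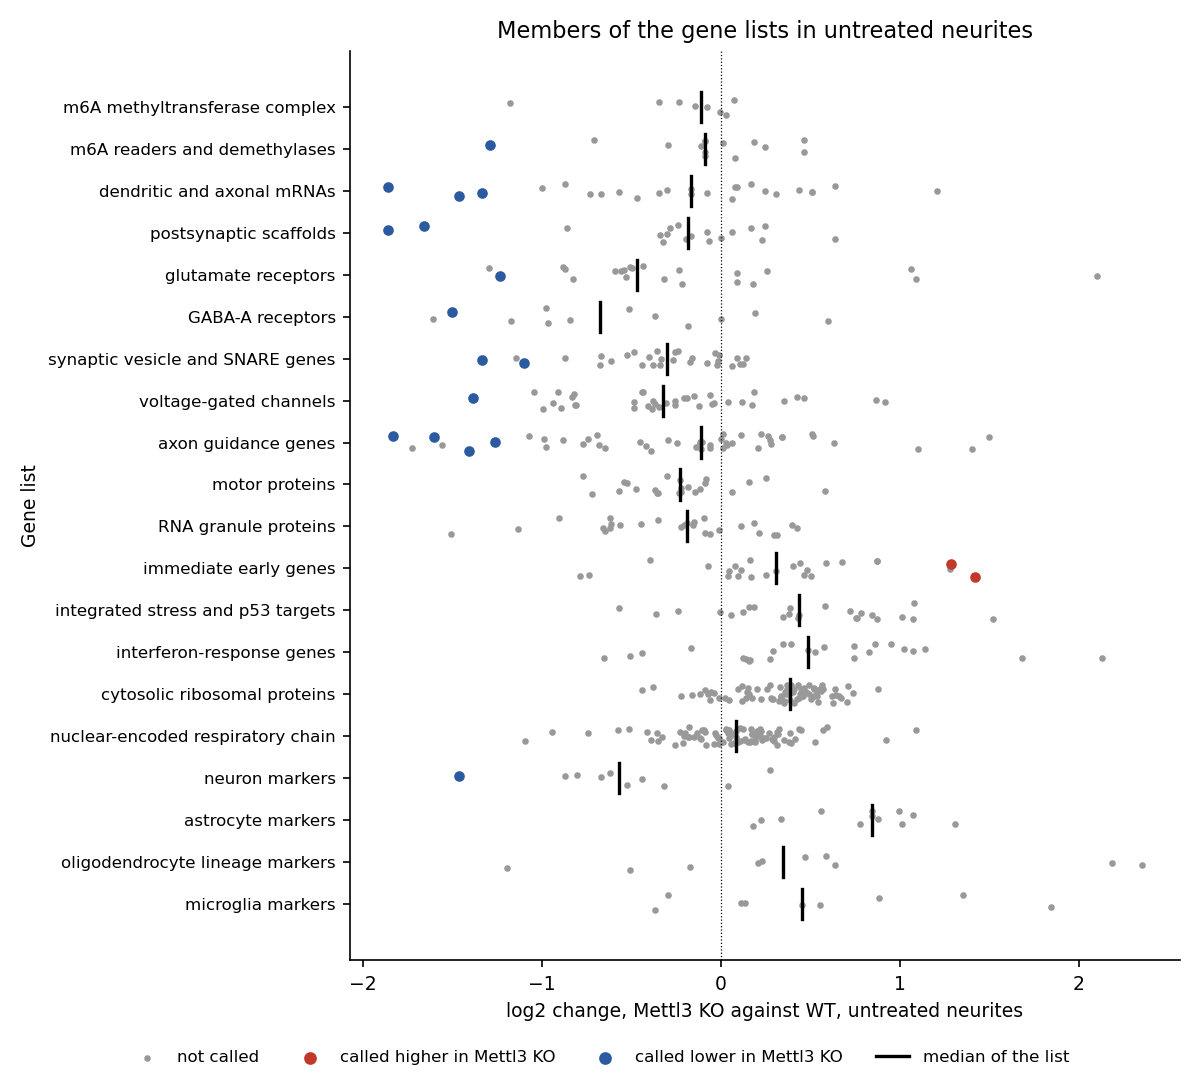
Each point is a gene of the list named on the y axis, at its log2 change in untreated neurites (Mettl3 KO against WT) on the x axis, with grey for genes not called, red for called higher, blue for called lower, and a black bar at the median of the list. The GABA-A receptor median lies at −0.679 and the astrocyte marker median at 0.843, and most calls on the lists are falls.

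The abundant falls outside these lists concerned signalling and transcription. Gnb1, the β1 subunit of heterotrimeric G proteins, measured 300 and 308 CPM in KO and 1132 and 1308 in WT (log2 change −2.01, standard error 0.172, adjusted p = 0.0141). Sox11, a transcription factor of immature neurons, measured 164 and 179 CPM against 603 and 766 (log2 change −2.00, adjusted p = 0.0150). Frs2, an adaptor of growth factor receptors, was at 28.4 and 25.6 CPM in KO and 106 and 131 in WT, and Inpp5f, a phosphoinositide phosphatase, at 108 and 120 CPM against 399 and 492. These 4 genes were chosen after their values were seen, and as in every gene called lower no KO value reached the lower WT value.

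Interferon-inducible genes of chromosome 1 were among the largest falls. Mndal (GRCm38 chromosome 1 from 173849126 to 173942491) measured 0.431 and 0.342 CPM in KO and 7.5 and 11.2 in WT, −4.58 on the log2 scale (standard error 0.384, adjusted p = 0.0141). Ifi203 (chromosome 1 from 173920407 to 173942672), a paralogue that overlaps Mndal, had a log2 change of −3.18 (adjusted p = 0.0150). Reads of the 2 genes may have been shared, since multi-mapping reads were counted and no strand was used. The 25 interferon-response genes of another list had no call in edgeR, and 21 of them had a positive log2 change (median 0.486). Of these 25, 6 were higher at an unadjusted p and 1 was called higher by DESeq2. Myo7a, an unconventional myosin known from hair cells, fell from 18.7 and 19.7 CPM to 3.08 and 1.66 (log2 change −3.01, adjusted p = 0.0246). Pank4, Eps8l1, Npy2r, a receptor for neuropeptide Y, and Cntnap3, a neurexin relative, fell with log2 changes between −2.58 and −3.01.

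The RNAs without a coding annotation fell and rose by as much. The pseudogene Tmem181b-ps (chromosome 17 from 6438524 to 6467022) measured 23.1 and 19.99 CPM in KO and 137 and 133 in WT (log2 change −2.65, standard error 0.172, adjusted p = 0.00606). Its copy Tmem181c-ps on the same chromosome had a log2 change of −2.01, and the 2 share sequence, so their counts are uncertain. The long noncoding RNAs 4732496C06Rik and Gm26809 and the locus CT010445.1 fell with log2 changes of −4.68, −3.51 and −3.02. In the other direction Gm45104 (chromosome 7 from 18396516 to 18400865), a transcript of the TEC class with no known function, measured 18.6 and 14.2 CPM in KO and 0.227 and 0.0278 in WT (log2 change 6.80, standard error 0.567, adjusted p = 0.0141). The pseudogene Rps15a-ps8 and the antisense RNA 1500015A07Rik rose with log2 changes of 3.12 and 2.91, and without strand the counts of the latter cannot be told apart from those of a gene on the other strand.

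The largest rises of protein-coding genes were in 2 clusters of paralogues. Serpina3m (chromosome 12 from 104338486 to 104394257), a serine protease inhibitor gene of the mouse Serpina3 cluster, measured 4.91 and 4.83 CPM in KO and 0.140 and 0.139 in WT (log2 change 5.10, standard error 0.413, adjusted p = 0.0141). Its neighbour Serpina3k, whose annotation overlaps it, and Serpina3n, which reactive astrocytes are known to express, rose as well. Serpina3n was the abundant member, at 254 and 229 CPM in KO and 113 and 84.7 in WT (log2 change 1.29, adjusted p = 0.0429). Cd209f and Cd209g, lectin genes that lie side by side on chromosome 8, measured 7.64 and 14.8 CPM and 4.48 and 10.1 CPM in KO, and 0.542 or less in both WT libraries (log2 changes 4.49 and 4.87, adjusted p = 0.0150 and 0.0341). Both clusters hold near-identical copies, and the split of reads between them is uncertain.

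Further rises concerned enzymes, kinases and transcription factors. Fn3krp, which repairs glycated proteins, measured 22.3 and 25.3 CPM in KO and 1.87 and 1.86 in WT (log2 change 3.67, standard error 0.240, adjusted p = 0.00606). Dapk3, a death-associated kinase, measured 50.4 and 20.3 CPM against 4.95 and 3.97 (log2 change 2.98, adjusted p = 0.0413). Cebpb, a transcription factor of inflammatory responses, and Adnp, a chromatin protein, rose from under 1 CPM in WT to 12.1 and 4.44 CPM and to 7.87 and 3.99 CPM in KO (log2 changes 3.63 and 3.27). Hddc3 rose from 3.27 and 3.81 CPM to 25.3 and 20.8, but it overlaps Gm18310, which fell, on the other strand, and the 2 were counted without regard to strand. Hmox1, the stress-inducible heme oxygenase, rose from 12.1 and 11.3 CPM to 28.8 and 34.99 (log2 change 1.45, adjusted p = 0.0403) and was chosen after its values were seen.

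The silenced KO neurites held more Fos and Egr1, transcription factor genes that neuronal activity induces. Fos measured 39.6 and 53.1 CPM in KO and 18.7 and 16.0 in WT (log2 change 1.42, standard error 0.212, adjusted p = 0.0429). Egr1 measured 75.9 and 80.7 CPM against 32.2 and 32.2 (log2 change 1.28, standard error 0.160, adjusted p = 0.0330). They were the 2 genes called of 25 immediate early genes, whose median was 0.305, with 21 of 25 values positive, and DESeq2 called 3 higher. The activity-regulated Arc and Npas4 had log2 changes of 0.31 and 0.87, and Egr3 of −0.74, none called by edgeR. Of 24 targets of the integrated stress response and p53 edgeR called none, 8 were higher at an unadjusted p, and DESeq2 called 5 higher. Their median was 0.433, with 20 values positive. Those with the smallest p included Bbc3, a p53 target that promotes apoptosis, Atf4, the transcription factor of the stress response, and Cdkn1a, a cell cycle inhibitor, at 1.07, 1.01 and 0.72 (adjusted p from 0.109 to 0.134).

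A further group of rises were short annotations that many genomic copies share. Of 46 tested miRNA annotations edgeR called 6 higher and 0 lower, against 0.174% and 0.449% of all genes tested. DESeq2 called 6 higher and 1 lower, and 18 of the 46 log2 changes were negative. Among the 6 rises, Gm23935, an annotation of 57 bases, measured 913 and 825 CPM in KO and 233 and 238 in WT. Mir6236 measured 178 and 179 CPM against 47.5 and 24.8. The long noncoding RNA Gm26917 rose likewise, from 17.5 and 11.9 CPM to 92.1 and 73.1 (log2 change 2.49, adjusted p = 0.0150). Because reads that map to several places were counted, these values cannot be given to a single locus, and they say nothing of mature miRNAs.

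The falls concerned longer genes than the rises. The 86 protein-coding genes called lower had a median exon length of 5757.5 bases, the 20 called higher of 2436 bases, and all 15206 tested of 4391 bases. Among protein-coding genes whose mean count reached 100, edgeR called 42 of 4191 genes of 6000 bases or more lower (1.00%) and none higher. At an unadjusted p, 531 of these were lower and 125 higher, and DESeq2 called 300 lower and 36 higher. In edgeR, from 1000 to 3000 bases 9 of 2790 were lower and 11 higher, and from 3000 to 6000 bases 31 of 4740 were lower and 8 higher. DESeq2 called 42 lower and 144 higher in the former class, and 182 lower and 131 higher in the latter. None of 238 genes under 1000 bases was called by edgeR, where 45 were higher and 3 lower at an unadjusted p, and DESeq2 called 20 and 3. The median log2 change ran with length, from 0.272 under 1000 bases through 0.153 and −0.0096 to −0.155 at 6000 bases or more. Set against the WT mean, KO replicate 1 ran from 0.357 in the shortest to −0.198 in the longest class and KO replicate 2 from 0.154 to −0.13, while the 2 WT libraries differed from each other by −0.039 and 0.016 in these classes. When each library's trend over exon length was removed, 27 rises and 61 falls were called, and 25 and 60 of them were among the 38 and 98. RNA integrity and read position along genes were not analysed here, and their part in the trend was not tested.

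**Figure D4:**
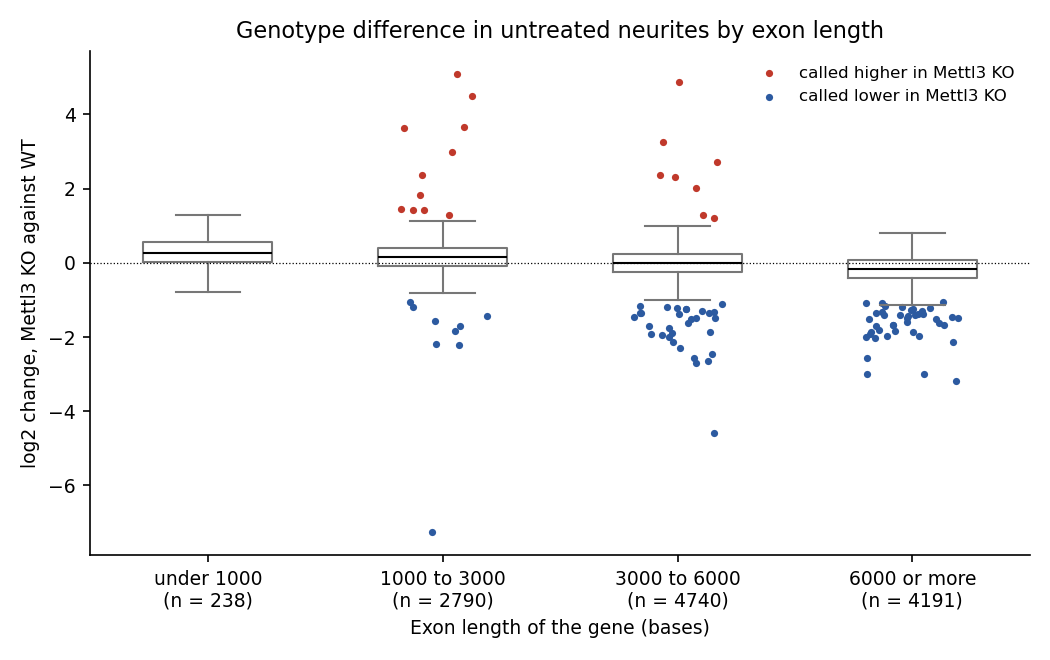
Log2 change in untreated neurites (Mettl3 KO against WT, y axis) of protein-coding genes whose mean count reached 100, by exon length on the x axis. Boxes span the quartiles with the median as a line, whiskers reach 1.5 times the box height, and coloured points are the called genes. Medians fall from 0.272 in the shortest to −0.155 in the longest class, which holds 42 falls and no rise called by edgeR.

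The genes called in neurites differed in the same direction in the soma of the same cultures. In soma no gene passed the adjusted threshold in edgeR (1458 higher and 1296 lower at an unadjusted p up to 0.05, and 229 and 158 by DESeq2), and KO soma replicate 2 stood apart, with a correlation of 0.880 to the other KO replicate against 0.996 between the WT replicates. Without KO soma replicate 1 edgeR called 4120 and 5192 genes, and without KO soma replicate 2 it called 2394 and 2397. Both KO soma libraries lay above both WT soma libraries for 34 of the 37 neurite rises that could be tested there, against 23.7% of all genes, and below them for 93 of the 98 falls, against 24.9%. With 1.5-fold and an unadjusted p up to 0.05, 32 of 37 were higher (6.14% of all genes) and 82 of 98 lower (5.46%). With KO soma replicate 1 alone, 37 of 37 lay above both WT libraries (42.6% of all genes) and 97 of 98 below (44.5%). Median log2 changes of the members in soma were 2.25 and −1.33, against 2.43 and −1.68 in neurites. Soma and neurites come from the same inserts, so these are not independent cultures. Homer2, Dbpht2, Ppp1r16b, Epha5 and Paip1 were the 5 falls whose soma groups overlapped.

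Neurites depolarised with KCl gave a like picture. Per the study's methods, control and KCl-treated neurons came from the same litter, so these are not independent litters. The adjusted edgeR test gave 0 calls there too (797 higher and 1048 lower unadjusted, 250 and 143 by DESeq2), and KO replicate 1 stood apart, with a correlation of 0.764 to KO replicate 2. Without KO replicate 1 it called 1407 and 2091 genes, and without KO replicate 2 it called 6357 and 5813. Of the 38 rises, 34 had both KO libraries above both WT libraries (24.4% of all genes), and of the 98 falls 96 had both below (25.5%). At an unadjusted p it was 28 (3.54% of all genes) and 73 (4.66%). With KO replicate 2 alone, all 38 lay above both WT libraries (41.3% of all genes) and all 98 below (41.8%). Fos was at a log2 change of −0.028 and Egr1 of 0.29 after KCl, where the groups of both overlapped.

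**Figure D5:**
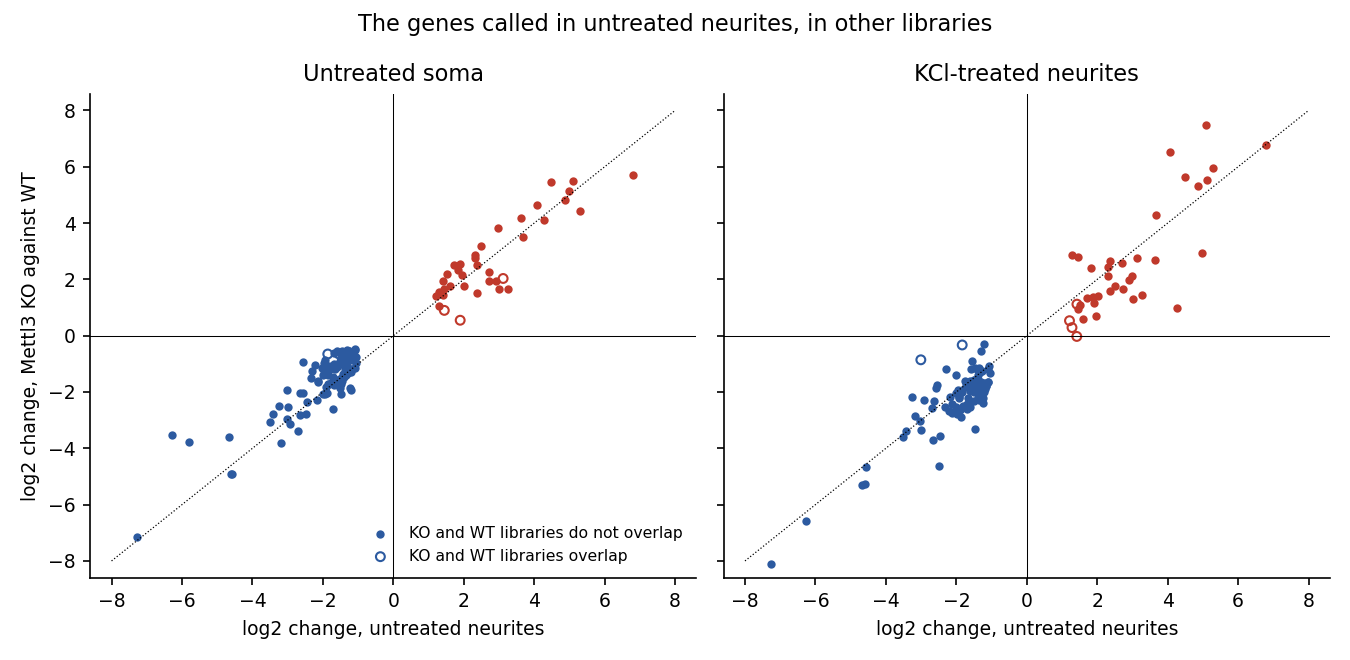
The genes called in untreated neurites, with their log2 change there on the x axis and their log2 change (Mettl3 KO against WT) in untreated soma (left) or KCl-treated neurites (right) on the y axis, red for genes called higher and blue for genes called lower in untreated neurites. Filled points mark genes whose KO and WT libraries did not overlap on the y axis, and the dotted line marks equal changes. The groups did not overlap for 93 of 98 falls in soma, nor for 96 of 98 after KCl.

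Whether a neurite difference exceeded that in soma was tested as the interaction of genotype and compartment in the 8 untreated libraries, with 1 term per insert. Over 14733 genes, replicate differences in soma correlated with those in neurites at 0.0663 in KO and −0.146 in WT. The values thus showed little sign of this pairing. At an adjusted p no gene passed in edgeR or DESeq2. With 1.5-fold and an unadjusted p up to 0.05, 185 of 22942 genes (0.806%) had a more positive and 162 (0.706%) a more negative KO effect in neurites than in soma. Without WT replicate 2 these counts were 17 and 23, without WT replicate 1 they were 88 and 60, and without KO replicate 1 or 2 they were 3372 and 2376 or 1444 and 1177. Of the 38 rises 1 was among the former, Adnp, and of the 98 falls 9 were among the latter. For Adnp the KO effect was 1.53 log2 units larger in neurites (standard error 0.457, unadjusted p = 0.0198, adjusted p = 0.998 in edgeR). The 9 were Apoa2, BC024978, Cntnap3, Galntl6, Inpp5f, Klhl29, Ncs1, Nxph2 and Pcsk1. Ncs1, for example, measured 396 and 744 CPM in KO soma and 870 and 789 in WT soma, with an interaction of −1.02 (standard error 0.388, unadjusted p = 0.0463). For Map2, which in soma measured 394 and 316 CPM in KO and 511 and 528 in WT, the unadjusted p was 0.0522. Over the 98 falls the median interaction was −0.399 and over the 38 rises 0.106. Since the neurite values enter both the choice of these genes and their interaction, the medians and the counts of 9 and 1 are descriptions.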

How the data were processed

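RNA-seq counts came from the deposited count table, which the authors made with Flexbar, STAR 2.7.7a (mm10) and featureCounts 2.0.1. Per the file headers, read pairs were counted over the exons of Ensembl genes of GRCm38, with multi-mapping reads counted and no strand option. The C-to-U fraction of each m6A site is the authors' mean over WT DART-seq libraries in the deposited site list. The authors' tables of neurite enrichment (fold changes and p-values) and of editing per RNA hold their own comparisons and were not used. No per-sample column was left out.

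Of 55573 genes, 55480 were given a symbol from their Ensembl ID. The 37 mitochondrial genes, all at 0, were removed. Genes whose counts averaged 10 or more over the 4 libraries (21814) were scaled by TMM and tested with edgeR 4.0.16 in R 4.3.3 (two-sided quasi-likelihood test with Benjamini-Hochberg adjustment), WT and KO as groups. A gene was called at 1.5-fold and an adjusted p of at most 0.05. Soma and KCl-treated neurites were fitted alike. The interaction was fitted over 8 libraries with 1 term per insert, since the study took soma and neurites from the same membranes. Without this term 165 and 272 genes passed in place of 185 and 162, with 76 and 131 of them shared. Alternatives used DESeq2 1.42.0 and other settings of edgeR. Scripts were tested on simulated data. Depth ran from 34969090 to 57046498 counts.

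Members and gene lists (29) were chosen with earlier results of these data known. Named genes were Mettl3, the genes the study followed by imaging or reporters, the 8 largest rises and 8 largest falls of coding genes and the 3 of other biotypes (mean count of at least 100, groups apart), the 6 smallest p, and the 4 smallest p of each list. Genes named outside this rule were chosen after their values were seen: Apoa2, Serpini1, Lynx1, Ncs1, Gnb1, Sox11, Frs2, Inpp5f, Hmox1, Ythdf2, Alkbh5, Arc, Npas4, paralogues, overlapping genes and miRNA annotations beside a named one, and the genes listed for soma and the interaction. Kinases of the Rps6k family were kept out of the ribosomal protein list. WT and KO replicates with the same number came from different litters and are not pairs (correlation of replicate differences 0.233).
Values of some genes are not reported here.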

Additional observations from a re-analysis of the deposited data

How the results depend on the processing

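The 38 rises and 98 falls in untreated neurites became 488 and 653 with DESeq2, 921 and 886 with no filter on low counts, 14 and 27 with all 16 libraries in 1 fit (9 and 24 of them shared), and 27 and 61 with the exon length trend removed. Leaving out 1 library gave 5 to 1551 rises and 8 to 1338 falls. Scaling by RLE (43 and 106) and a mean count of at least 100 (29 and 78) stayed within 1.5-fold. With the replicate number as a block the counts were 509 and 564, although the numbers mark different litters, the pairing check over 2 pairs gave a correlation of 0.233, and nothing else pairs the samples. In soma, with 0 and 0 calls, DESeq2 gave 229 and 158, all 16 libraries 15 and 29, no filter 83 and 71, the block 0 and 0, and leaving out 1 library 0 to 4120 and 0 to 5192. In KCl-treated neurites, also with 0 and 0, these were 250 and 143, 23 and 76, 12 and 26, 0 and 0, and 0 to 6357 and 0 to 5813. The interaction counts of 185 and 162 became 571 and 115 with DESeq2, 668 and 294 with all 16 libraries, 98 and 72 at a mean count of at least 100, 1629 and 267 with no filter, 165 and 272 with no replicate block, and 17 to 3372 and 23 to 2376 with 1 insert left out. The cause was not tested.

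Signs turned for 6 named genes. Leaving out 1 library gave log2 changes from −0.68 to 1.31 for Shank1, −0.28 to 0.35 for Bdnf and −0.27 to 0.49 for Homer1 (negative without KO replicate 1), and from −0.00566 to 0.96 for C1qc and −0.32 to 1.54 for C1qb (negative without KO replicate 2). Rian was at 0.0797 with the length trend removed. Of 138 named genes, the adjusted p left the called side for 29 without WT replicate 2, 22 with all 16 libraries, 14 without WT replicate 1, 12 without the length trend and 5 at a mean count of at least 100. Most of the 138 were not called and could not leave that side, so 138 is not the base of these counts. With 2 libraries a group, the p-values rest on the spread between single litters. For each gene edgeR estimates this spread in part from all genes tested.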

Other observations

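Of 83 ribosomal protein genes tested edgeR called none in untreated neurites (10 higher at an unadjusted p, 3 by DESeq2), with 72 positive log2 changes and a median of 0.384, while their median in soma was −0.507; the difference between the compartments was not tested for the list. The 90 nuclear genes of the respiratory chain had no call in edgeR (3 higher at an unadjusted p, 1 by DESeq2) and medians of 0.0825 in neurites and −0.676 in soma, where KO replicate 2 stood apart. Pseudogenes had 2405 positive values of 3359 (median 0.246), and edgeR called 4 higher and 2 lower. At an unadjusted p 276 were higher and 61 lower, and DESeq2 called 78 and 17.

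At an adjusted p edgeR called no gene on 9 further lists, for which the counts at an unadjusted p and 1.5-fold and those of DESeq2 follow. Over all 21814 genes tested, 1350 were higher and 1441 lower unadjusted, and 488 and 653 in DESeq2. Of 14 hippocampal cell type markers (median −0.472) 5 were lower unadjusted and 3 in DESeq2, of 17 interneuron markers (−0.281) 4 and 3, and of 15 fibroblast and vascular markers (−0.398) 4 and 3. Of 10 oligodendrocyte lineage markers (0.346) 3 were higher unadjusted and 1 in DESeq2, of 9 microglia markers (0.45) 1 and 1, and of 21 heat shock proteins and chaperones (0.13) 3 and 1. Of 19 glycolysis genes (−0.0369) 2 were lower unadjusted and 1 in DESeq2. Of 16 proliferation genes (0.174) 2 were higher and 1 lower unadjusted, and 1 and 1 in DESeq2. For 8 nuclear-retained RNAs (−0.185) all these counts were 0. Of 5 sex-linked genes edgeR called none, 1 was higher and 2 lower unadjusted, and DESeq2 called 1 higher. Xist measured 18.5 and 30.5 CPM in KO and 8.22 and 5.69 in WT (adjusted p = 0.0605, edgeR), in litters of both sexes. Of the Y-linked genes, Ddx3y and Uty were lower in both KO libraries, Eif2s3y was higher in both, and Kdm5d overlapped between the groups. The sex ratio of the pooled litters is not given, and its part in these values was not tested.

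Some called genes were neighbours. Within 1 Mb of another called gene lay 33 of 136, such as Cebpb, Gm14236 and Adnp on chromosome 2, all higher, and Pank4, Gnb1 and Pusl1 on chromosome 4, all lower. Several of the 33 overlap a called neighbour or are paralogues of it and may share reads, such as Mndal and Ifi203. How often any tested genes lie this close was not counted, so 33 is no measure of clustering. Neighbours also moved apart, as Paip1 (lower) and Tmem267 (higher) on chromosome 13 with 29821 bases between them. Over the autosomes and the X, the share of tested genes called ran from 0.302% on chromosome 19 to 1.43% on chromosome 12 (13 of 911), and on the Y 1 of 13 tested genes (7.69%) was called, Gm47283, which was lower and was named after its value was seen. Of 234 genes within 10 Mb of Mettl3, 1 was called higher and 2 lower, when 0.174% and 0.449% of all genes tested were. No test was made of these shares.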
